A study of Mus musculus with 14 samples.

Results

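The 77 genes described here encode proteins of the mitochondrial ribosome, the particle that translates the mRNAs of the mitochondrial genome. They were chosen by symbol, Mrps or Mrpl followed by a number and at most 1 letter, and by a total count of at least 10 in at least 6 of 14 libraries. The pattern matched 78 of 36335 named rows, and Mrps21 did not pass the count minimum. Of the 77 genes, 25 encode proteins of the small subunit and 51 proteins of the large subunit, where Mrps18a and Mrps30 are also found. Mrps36 keeps a historical symbol and is now assigned to the oxoglutarate dehydrogenase complex.

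The series measured total RNA and labelled RNA by SLAM-seq in E14, a mouse embryonic stem cell line. The source label of the 8 h Mettl3-KO libraries reads E15 and E16 in place of E14, while their titles and cell line label give E14; they were grouped by title, and the slopes in Mettl3-KO rest in part on them. The Mettl3-KO group, which lacks the catalytic subunit of the enzyme that writes m6A on mRNA, had 8 libraries, 2 at each of 0, 1, 3 and 8 h. The WT group had 6 libraries, 2 for each of 1 h and 8 h and a single one for 0 h and for 3 h. Both groups were kept on gelatin in FBS/LIF medium with the mTOR inhibitor INK128 at 200 nM for 2 weeks, which holds embryonic stem cells in a paused state. Both received the uridine analogue S4U at 100 µM for 12 h, and the hours count from the return to medium without S4U. Iodoacetamide makes S4U read as C, so a T>C conversion marks RNA made during the labelling. The libraries read 3' ends of mRNA. The labels do not say whether the Mettl3-KO line is 1 clone, whether INK128 was present after the labelling, or whether replicates were separate cultures. The p-values below therefore measure the spread between these libraries, which may be technical.

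Mitochondrial ribosomal proteins are encoded in the nucleus, made in the cytosol and imported, and they assemble on rRNAs that the mitochondrial genome encodes. Some of the proteins are homologues of bacterial ribosomal proteins, and many others are particular to mitochondria. Translation of these mRNAs is known to respond to mTOR, and their promoters are known for sites of NRF1, of the ETS family factor GABP and of YY1.

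Total counts were between 6108102 and 26654217 in 12 libraries, 7 of Mettl3-KO and 5 of WT, and these 12 libraries gave the results below unless stated. Mettl3-KO 3 h replicate 2 had 602297 counts, with a median of 20 per member, and WT 1 h replicate 2 had 49154 counts, with a median of 2 per member. Conversion counts made up 6.90% and 8.43% of the total in these 2 libraries, against 18.5% and 30.8% in the other library of each group. WT at 0 h, 1 h and 3 h and Mettl3-KO at 3 h are thus represented by 1 library each, which is assumed to vary like the others. Levels are given in CPM, counts scaled to a common library size. For Mettl3 and the markers in this paragraph the CPM carry no TMM factors, and for the members below they do. Mettl3 itself had 1.2 to 2.56 CPM in Mettl3-KO and 24.7 to 75.9 CPM in WT. The Y-linked gene Ddx3y had 131 to 226 CPM in Mettl3-KO and 1.11 to 3.88 CPM in WT, so the lines differ in more than Mettl3. Summed CPM of 9 embryonic stem cell markers was 3563 to 5051 in Mettl3-KO and 4213 to 5207 in WT, with Pou5f1, Sox2 and Nanog present in all 12 libraries. Of these 9, Esrrb (log2 -0.88, edgeR adjusted p = 0.00233) and Dppa5a (log2 -2.07, edgeR adjusted p = 0.0150) were lower in Mettl3-KO, and the others were not called. The sum of 5 primed epiblast markers was 176 to 521 CPM in Mettl3-KO and 70.8 to 104 CPM in WT, with Fgf5 at or near 0 in both and Otx2 the other way (log2 -0.62, edgeR adjusted p = 0.0959). The sum of 6 endoderm markers was 12.1 to 19.5 CPM in Mettl3-KO and 28 to 36.0 CPM in WT, although Foxa2 among them was higher in Mettl3-KO (log2 1.99, edgeR adjusted p = 0.00561) and Dab2 was at -0.02. The sum of 5 fibroblast markers was 8.36 to 12.4 CPM in Mettl3-KO and 15.5 to 30.0 CPM in WT. Among them Col1a1 (log2 -2.24, edgeR adjusted p = 0.000128) and Acta2 (log2 -1.19, edgeR adjusted p = 0.00420) were lower in Mettl3-KO, while Col3a1 (log2 -0.06) and Thy1 (log2 -0.26) were not called. The part of these differences in the results was not tested, and in bulk RNA fewer cells of a type and less RNA per cell cannot be told apart.

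The promoters of the members were read from RefSeq (GRCm38.p6, the assembly of mm10) for 68 of the 77 genes, from 250 bases before to 50 bases after the start of the gene. Both strands were searched for 4 short motifs. Motifs may overlap, as the last 3 letters of the ETS motif are the first 3 of the YY1 motif, and each was counted on its own. The ETS motif CCGGAAG was present in 25 of 68 member promoters (36.8%) and in 19.8% of the 10350 promoters of genes tested for total RNA. The NRF1 core GCATGCGC was in 11.8% of member promoters and 6.16% of those of all tested genes. The YY1 motif AAGATGGCG was in 11.8% of member promoters and 3.57% of all, and the E-box CACGTG, the site of MYC and related factors, in 7.35% of member promoters and 11.9% of all. A match is a run of letters and not a measured binding site, and base composition was not compared. The 28-base windows below belong to members named later for their total RNA or their loss of label. They are written 5' to 3' on the strand of the gene with the motif in capitals.

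Mrpl34: actacagctcCCGGAAGgccccgcggca
Mrpl43: cgcggtgactCCGGAAGcaaaactctcc
Mrpl58: tggcggaccgCCGGAAGagtgagcaccg
Mrpl57: cccagagagaCCGGAAGcagcgcgccgc
Mrpl27: tccgcaagacCCGGAAGtagatctatcc
Mrps12: aggaggaaccCCGGAAGgggctggaggt
Mrpl51: aggggctaaaCCGGAAGtatttgactgg
Mrpl20: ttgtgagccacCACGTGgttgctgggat
Mrpl17: ccgagttactGCGCATGCgtcctctgag
Mrps24: ggtcgcgccggcccAAGATGGCGtggtc

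The first 7 windows hold the ETS motif, that of Mrpl20 the E-box, that of Mrpl17 the NRF1 core read on the opposite strand and that of Mrps24 the YY1 motif. They lie at chr8:71464879-71464906 (Mrpl34, plus strand), chr19:45006481-45006508 (Mrpl43, minus strand), chr11:115403725-115403752 (Mrpl58, plus strand), chr14:57826233-57826260 (Mrpl57, plus strand) and chr11:94653726-94653753 (Mrpl27, plus strand). The others lie at chr7:28741803-28741830 (Mrps12, minus strand), chr6:125192100-125192127 (Mrpl51, plus strand), chr4:155802834-155802861 (Mrpl20, plus strand), chr7:105811081-105811108 (Mrpl17, minus strand) and chr11:5707652-5707679 (Mrps24, minus strand). With the annotated start at 0, the ETS motif in the printed windows began between -90 (Mrpl51) and 4 (Mrpl57). Over all 30 matches in the 25 member promoters that hold it, it began between -240 (Mrpl18) and 43 (Mrps18b), with a median of -18.

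Total RNA of many mitochondrial ribosomal protein genes was higher in Mettl3-KO than in WT, with Mrpl46 and Mrpl12 at the top. Of the 77 members, 36 were higher in Mettl3-KO at an adjusted p under 0.05 (edgeR quasi-likelihood test, Benjamini-Hochberg over 14641 genes) and 0 were lower. The count of lower members was also 0 at an unadjusted p under 0.05 and by DESeq2. Over all genes tested, 21.8% were called higher and 19.2% lower. The log2 difference was above 0 for 66 members, with a median of 0.44, beside a median of 0.03 over all genes. Small subunit genes (12 of 25 higher, median 0.56) and large subunit genes (24 of 51, median 0.39) gave like shares, as did those with a bacterial homologue (21 of 45) and those particular to mitochondria (15 of 31). In 24 members every Mettl3-KO library lay above every WT library, which held for 12.6% of all genes. With all 14 libraries the call was made for 22 members, beside 12.1% of all genes.

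Added together, the 77 genes took 0.991% ± 0.111 of the counts of a library in Mettl3-KO (SD, n = 7) and 0.638% ± 0.0453 in WT (SD, n = 5). By library, the share in Mettl3-KO was 0.818% and 0.917% at 0 h, 0.938% and 0.980% at 1 h, 1.07% at 3 h, and 1.14% and 1.07% at 8 h. In WT it was 0.685% at 0 h, 0.590% at 1 h, 0.589% at 3 h, and 0.656% and 0.670% at 8 h. The lowest Mettl3-KO library thus stood above the highest WT library. The shallow libraries gave 0.473% in Mettl3-KO 3 h replicate 2 and 0.572% in WT 1 h replicate 2, so the shallow Mettl3-KO library lay below all 6 WT libraries. The amount of RNA per cell was not measured, and all levels are relative to the library.

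**Figure D1:**
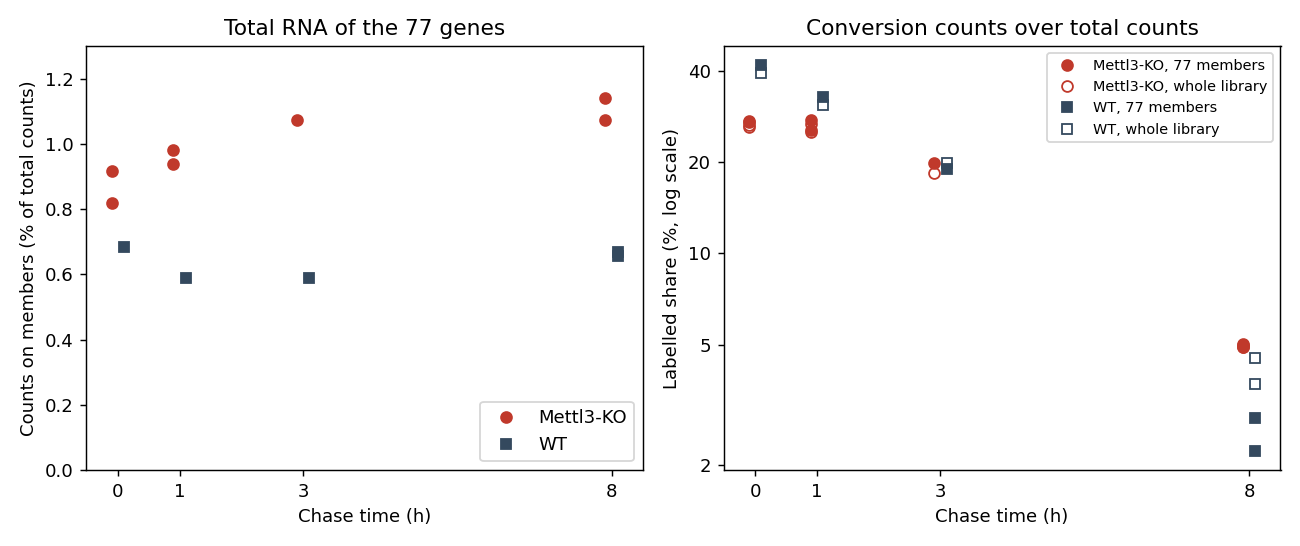
The left panel plots the share of each library's total counts that fell on the 77 genes (%) against chase time (h), and the right panel the labelled share, conversion counts over total counts (%, log scale), for the 77 genes (filled) and the whole library (open). Each point is 1 of the 12 deep libraries. The Mettl3-KO points lie above the WT points on the left at all 4 times, and on the right Mettl3-KO is lower than WT at 0 h (27.3% and 27.1% against 41.8%) and higher at 8 h (4.90% and 5.04% against 2.85% and 2.23%).

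The 8 members with the smallest p for total RNA were 7 large subunit genes and 1 small subunit gene. Mrpl46 (chromosome 7, 78775341 to 78783089), a large subunit protein particular to mitochondria, ranged from 145 to 263 CPM in Mettl3-KO with a median of 186. In WT it had 67.5, 48.9, 50.1, 60.4 and 60.2 CPM in the libraries of 0 h, 1 h, 3 h and 8 h. The groups did not overlap, and the lowest Mettl3-KO library had more than double the highest WT level. The log2 difference was 1.72 (SE 0.18, edgeR adjusted p = 8.30e-07).

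Mrpl12 (chromosome 11, 120484637 to 120488754) is the homologue of the bacterial stalk protein that contacts translation factors. It ranged from 263 to 473 CPM in Mettl3-KO with a median of 400, and had 162, 107, 94.4, 136 and 153 CPM in WT. The lowest Mettl3-KO libraries were those of 0 h and 1 h, and all 7 exceeded the WT values. The log2 difference was 1.59 (SE 0.19, edgeR adjusted p = 4.18e-06).

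Mrpl51 (chromosome 6, 125192200 to 125194392), particular to mitochondria, varied little in Mettl3-KO, where it ranged from 249 to 285 CPM with a median of 265. WT had 107, 84.3, 94.9, 127 and 98.3 CPM, and the log2 difference was 1.37 (SE 0.15, edgeR adjusted p = 1.53e-06). Mrpl45 (chromosome 11, 97314923 to 97329920) lies at the exit of the nascent chain and ties the ribosome to the inner membrane. It ranged from 369 to 478 CPM in Mettl3-KO with a median of 414, and had 177, 168, 150, 205 and 163 CPM in WT. It had the highest mean level of the members in Mettl3-KO, and its log2 difference was 1.28 (SE 0.15, edgeR adjusted p = 2.79e-06).

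Mrpl19, Mrpl20 and Mrpl16 encode homologues of bacterial large subunit proteins. Mrpl19 (chromosome 6, 81957826 to 81965949) ranged from 158 to 257 CPM in Mettl3-KO with a median of 193, and had 77.5, 64.7, 72.1, 91.1 and 111 CPM in WT. Its log2 difference was 1.34 (SE 0.16, edgeR adjusted p = 6.08e-06), and with all 14 libraries the difference was 1.33 but no longer called. Its span overlaps Gcfc2, and whether the counting used strand is not given in the sources used here. Mrpl20 (chromosome 4, 155802878 to 155808831) ranged from 188 to 332 CPM in Mettl3-KO with a median of 230, and had 125, 92.4, 109, 96.1 and 112 CPM in WT. Its log2 difference was 1.27 (SE 0.16, edgeR adjusted p = 9.63e-06). Mrpl16 (chromosome 19, 11770415 to 11774956) ranged from 117 to 204 CPM in Mettl3-KO with a median of 173, and had 67.6, 62.6, 64.2, 69.5 and 88.3 CPM in WT. Its log2 difference was 1.24 (SE 0.16, edgeR adjusted p = 1.21e-05). In none of the 3 genes did the groups overlap.

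Mrps2 (chromosome 2, 28465951 to 28471177), the homologue of a bacterial small subunit protein, ranged from 225 to 396 CPM in Mettl3-KO with a median of 324. WT had 137, 147, 126, 136 and 117 CPM, and all 7 Mettl3-KO libraries lay above these. The log2 difference was 1.23 (SE 0.16, edgeR adjusted p = 1.43e-05). Its span overlaps that of 1700007K13Rik. Mrps12, which sits at the decoding centre, followed with a log2 difference of 1.21 (SE 0.17, edgeR adjusted p = 2.13e-05). Mrps24 of the small subunit, shown above with the YY1 motif, had a log2 difference of 1.02 (SE 0.17), with 123 to 145 CPM in Mettl3-KO and 46.6 to 101 CPM in WT. The members called higher beyond the first 8 had log2 differences between 0.44 (Mrpl40) and 1.38 (Mrpl34).

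**Figure D2:**
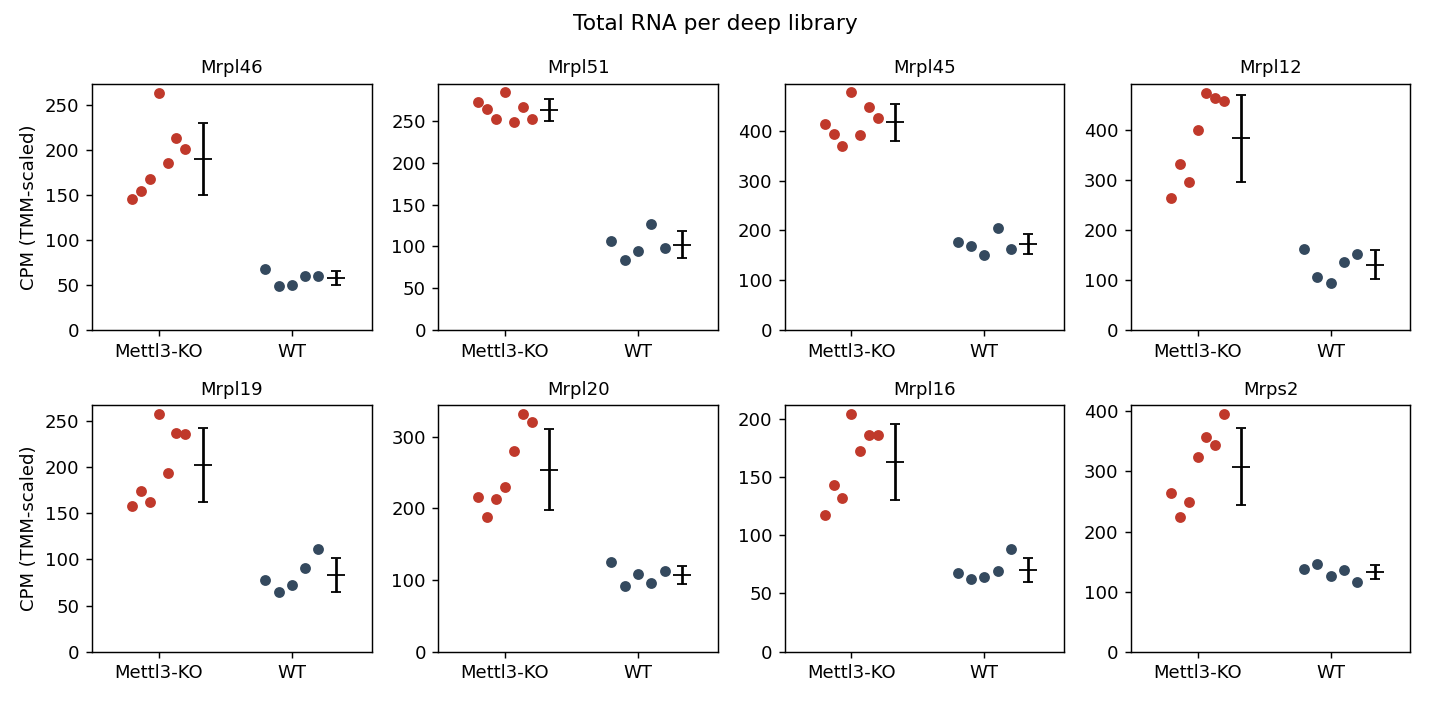
Total RNA in CPM (TMM-scaled) in each of the 12 deep libraries for the 8 members with the smallest p, Mettl3-KO left of WT. Points within a group run in order of chase time, and the bar gives the mean and SD (n = 7 and n = 5). In all 8 genes the lowest Mettl3-KO point lies above the highest WT point.

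The members that were not called included the gene with the highest mean level over the 12 libraries. Mrpl18 (chromosome 17, 12911345 to 12917787), the homologue of a bacterial protein of the central protuberance, ranged from 268 to 391 CPM in Mettl3-KO with a median of 314, and had 320, 309, 317, 306 and 323 CPM in WT. The groups overlapped, and the log2 difference was 0.05 (SE 0.14, edgeR adjusted p = 0.802). The 11 members with a difference below 0 reached -0.45 (Mrpl48), and none was called lower. Mrps28 had a large SE (0.85) beside a difference of 0.53, with 41 total counts in Mettl3-KO 1 h replicate 2 and 1591 in replicate 1 of that group. Mrps36 had the lowest level, 0.587 CPM ± 0.274 in Mettl3-KO (SD, n = 7) and 0.505 CPM ± 0.492 in WT (SD, n = 5).

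**Figure D3:**
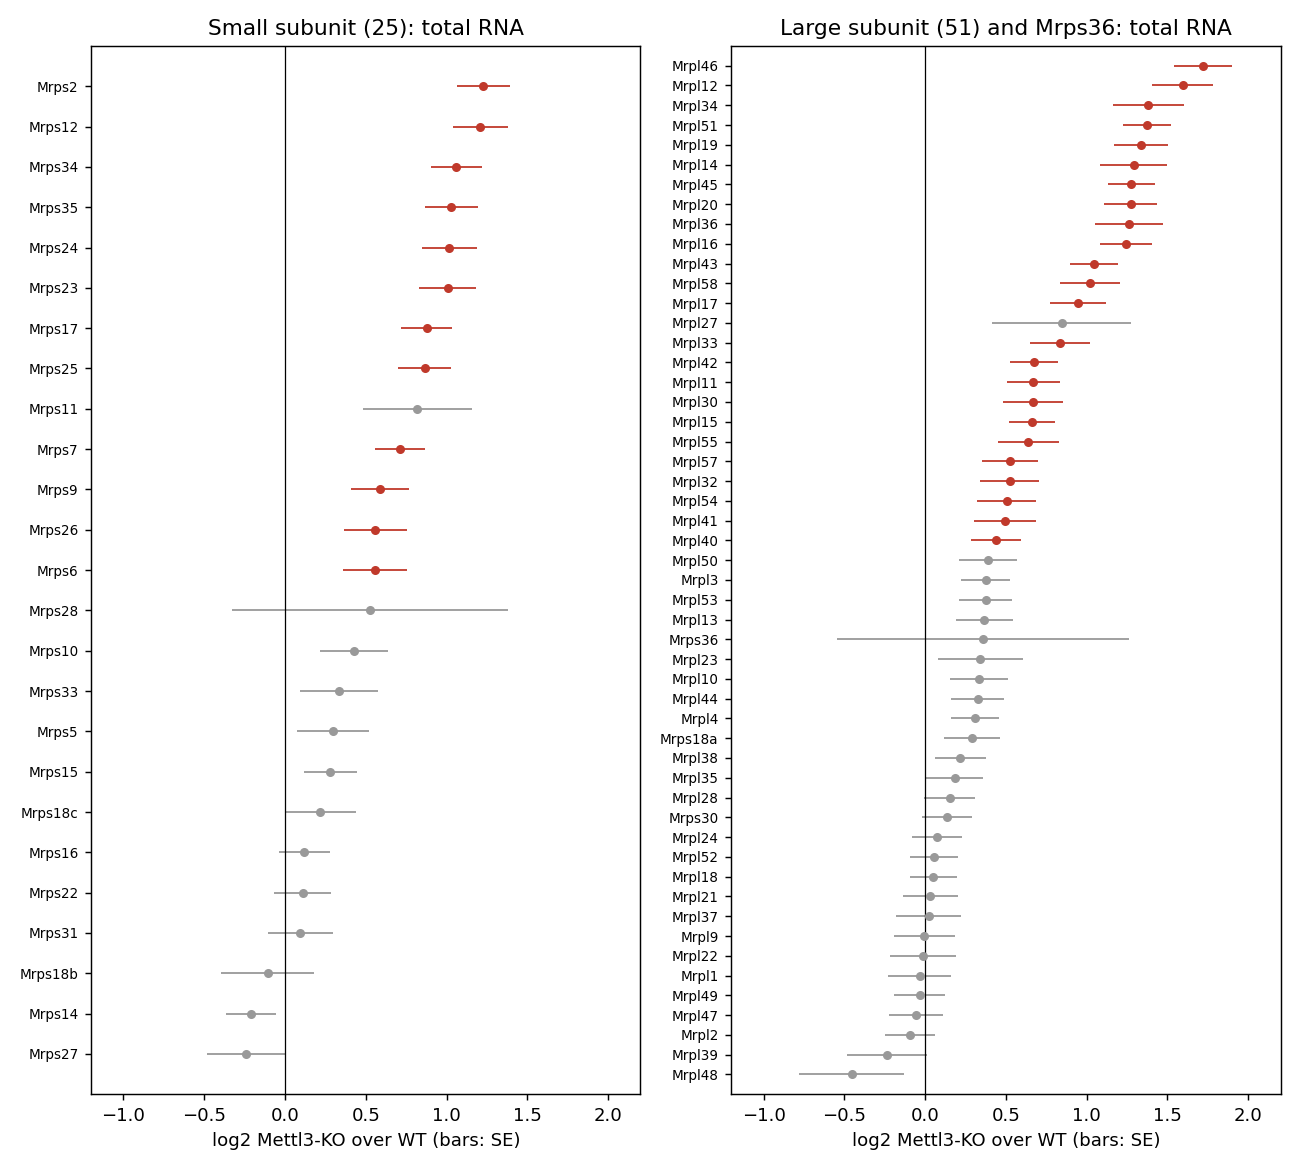
The log2 difference in total RNA, Mettl3-KO over WT, for each of the 77 genes, with bars of 1 SE from the edgeR fit, small subunit on the left and large subunit with Mrps36 on the right. Red points passed an adjusted p of 0.05 over all genes, 12 of 25 in the small subunit and 24 of 51 in the large subunit, and all red points lie to the right of 0.

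The 3 members of the S18 family, which derive from 1 bacterial protein, sit in different places of the ribosome, and none was called for total RNA. Mrps18a of the large subunit ranged from 39.96 to 83.4 CPM in Mettl3-KO and from 48.5 to 71.5 CPM in WT, a log2 difference of 0.29 (SE 0.17). Mrps18b of the small subunit ranged from 2.82 to 8.09 CPM in Mettl3-KO and from 3.57 to 11.3 CPM in WT (log2 -0.11, SE 0.29). Mrps18c, also of the small subunit, ranged from 27.1 to 53.4 CPM in Mettl3-KO and from 25.3 to 50.2 CPM in WT (log2 0.22, SE 0.22). In all 3 the groups overlapped. Loss of label was called slower for Mrps18c, with a slope difference of 0.391 log2 per h (SE 0.118, edgeR adjusted p = 0.0334), while Mrps18a had 0.244 (SE 0.147) and Mrps18b 0.473 (SE 0.295).

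Whether total RNA moved differently over the 8 h was asked with the interaction of genotype and hours. Mrpl34 was the 1 member called, beside 0.239% of all genes called in that direction. An unadjusted p under 0.05 was found for 13 of 77 members, all above 0, beside 7.57% of all genes above 0 and 2393 of 14641 genes in either direction. Mrpl34 (chromosome 8, 71464926 to 71465753), the homologue of a small bacterial protein of the large subunit, had 166 and 148 CPM in Mettl3-KO at 0 h, 204 and 230 at 1 h, 349 at 3 h, and 374 and 410 at 8 h. In WT it had 117 CPM at 0 h, 103 at 1 h, 113 at 3 h, and 85.0 and 87.8 at 8 h. Its level was thus higher at each later time in Mettl3-KO, and lowest at 8 h in WT. The difference in slope was 0.20 log2 per h (SE 0.04, edgeR adjusted p = 0.0452). The call was lost with all 14 libraries, with the replicate block, without robust estimation and in all but 2 of the 12 fits that each leave out 1 library. Next by p were Mrps11 at 0.23 log2 per h (SE 0.06, edgeR adjusted p = 0.0890) and Mrps5 at 0.16 (SE 0.05, edgeR adjusted p = 0.123), both of the small subunit.

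Labelled RNA at 0 h was read from lines fitted over all chase times, so its value can depart from that of the 0 h libraries. Per unit of total RNA in the library, it did not pass the test in either direction for any of the 76 members with enough conversions. Mrps36, with 0 to 19 total counts per library, did not enter. Over all 12678 genes tested, 1.64% were called higher in Mettl3-KO and 8.66% lower. The median log2 difference was -0.26 over members and -0.40 over all genes, and 28 members were above 0. At an unadjusted p under 0.05 there were 4 members above 0 and 5 below, beside 4.41% of all genes above and 18.7% below, and DESeq2 called 1 higher. With TMM scaling of the conversion counts the direction turned: the median was 0.14 over members, beside a median of 0.02 over all genes, and 49 of 76 were above 0. Under that scaling 8 members were called higher, and the share of all genes called is not given here. The 3 with the smallest p were Mrpl51 at 1.12 (SE 0.39, edgeR adjusted p = 0.0556), Mrpl45 at 1.13 (SE 0.41, edgeR adjusted p = 0.0682) and Mrpl12 at 1.11 (SE 0.45, edgeR adjusted p = 0.105). Against its own total RNA each of these had a value below 0, at -0.39, -0.17 and -0.26.

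The labelled share, conversion counts over total counts of the same genes, started lower and ended higher in Mettl3-KO. Pooled over the 77 genes it was 27.3% and 27.1% at 0 h, 25.6% and 27.5% at 1 h, 19.8% at 3 h, and 4.90% and 5.04% at 8 h in Mettl3-KO. The WT libraries had 41.8% at 0 h, 32.8% at 1 h, 19.0% at 3 h, and 2.85% and 2.23% at 8 h. At 8 h the Wilson 95% intervals were 4.78% to 5.02% and 4.96% to 5.12% in Mettl3-KO, and 2.75% to 2.96% and 2.09% to 2.37% in WT; they cover counting error alone and treat each conversion count as 1 read. The share of the whole library at 0 h was 26.1% and 26.6% in Mettl3-KO and 39.4% in the single WT library. The lower start was thus shared by the whole library. The share of the whole library at 8 h was 4.90% and 4.97% in Mettl3-KO and 4.52% and 3.72% in WT. At 8 h the pooled share of the members thus stood within 0.0657 percentage points of the whole library in Mettl3-KO, and 1.67 and 1.49 points below it in WT.

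A line through log2 of the pooled share over hours had a slope of -0.321 per h in Mettl3-KO (SE 0.0234, n = 7 libraries), a half-life of 3.12 h. In WT the slope was -0.521 per h (SE 0.0308, n = 5 libraries), a half-life of 1.92 h. The slopes of the whole library were -0.317 per h in Mettl3-KO and -0.415 per h in WT. Half-lives, here and below, carry no correction for cell division and take the rate of loss as constant. Whether a straight line describes the loss was not tested. The mean pooled share in Mettl3-KO hardly changed over the first hour (27.2%, then 26.6%), and most of its fall to 4.97% came later. In the single WT libraries it had gone from 41.8% to 32.8% over that hour. The half-lives are therefore averages over the 8 h. At the level of single genes, the 8 h share was higher in both Mettl3-KO libraries than in both WT libraries for 40 of the 75 members with at least 50 total counts in each, beside 30.6% of all such genes. The reverse held for 4 members, beside 15% of all such genes. The median 8 h share was 4.35% in Mettl3-KO and 2.28% in WT over members, and 2.46% and 2.24% over all such genes. By these medians the members stood above all genes in Mettl3-KO and close to them in WT. That is the reverse of the pooled comparison with the whole library, which weights genes by their counts.

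Loss of labelled RNA over the hours was tested for each gene within each genotype. In Mettl3-KO it was called for 69 of 76 members, beside 89.5% of all genes, and in WT for 76 of 76, beside 91.5%. The median slope was -0.301 log2 per h over members and -0.473 over all genes in Mettl3-KO. In WT it was -0.545 over members and -0.562 over all genes. The members' median half-life was 3.3 h in Mettl3-KO, with a range of 1.51 h (Mrpl47) to 11.2 h (Mrpl54), and 1.84 h in WT, with a range of 1.21 h (Mrpl22) to 3.25 h (Mrpl52). The 7 members without a call in Mettl3-KO were Mrpl27, Mrpl33, Mrpl34, Mrpl48, Mrpl54, Mrps28 and Mrps33, named after their values were seen.

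The difference between the slopes, Mettl3-KO minus WT, is above 0 where label was lost more slowly in Mettl3-KO. It was above 0 for 71 of 76 members, and 22 were called slower and 0 faster (edgeR adjusted p under 0.05), with 0 faster at an unadjusted p under 0.05 and by DESeq2. Over all genes tested, 5.5% were called slower and 0.371% faster. Whether a gene is called also depends on its counts, and genes of like counts were not set beside the members in any comparison. The median difference was 0.198 log2 per h over members and 0.0983 over all genes. The large subunit had 18 of 51 members called and the small subunit 4 of 25, with medians of 0.20 for both; the difference between the subunits was not tested. Members particular to mitochondria had 12 of 31 called and those with a bacterial homologue 10 of 45. With all 14 libraries 10 members were called, beside 2.26% of all genes. Without WT 8 h replicate 2 there were 13, and the share of all genes called in that fit is not given here.

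**Figure D4:**
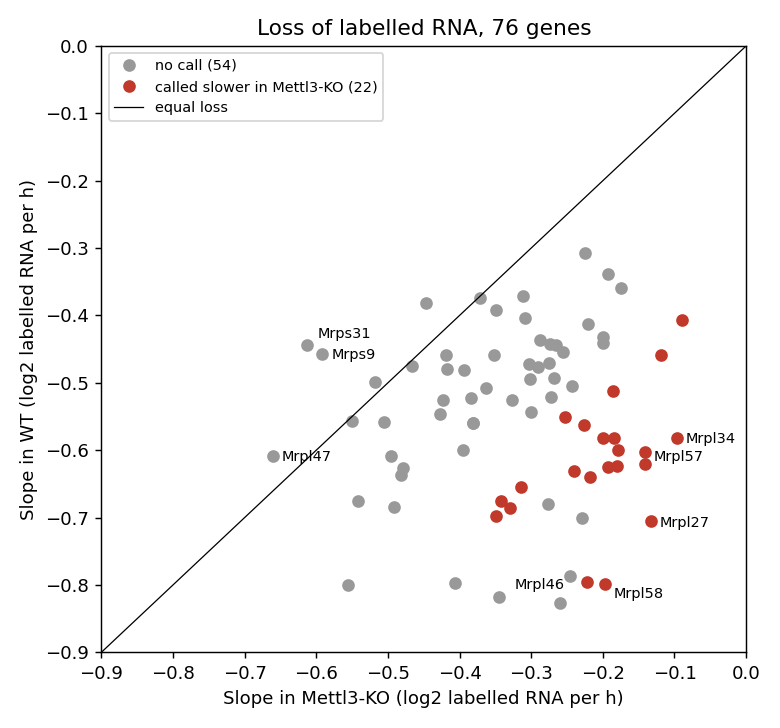
Slope of labelled RNA over hours (log2 per h) in Mettl3-KO on the horizontal axis and in WT on the vertical axis for the 76 genes tested, with the line of equal loss. Points below the line lost label more slowly in Mettl3-KO, which holds for 71 of 76 genes, and the 22 red points passed an adjusted p of 0.05.

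Of the 8 members named here for slower loss, 6 are shown above with the ETS motif in a promoter window. Windows were printed for named members only, the motif was in 36.8% of all member promoters, and a relation to loss was not tested. Mrpl34 had labelled shares of 25.9% and 30.0% at 0 h, 26.7% and 29.1% at 1 h, 20.3% at 3 h, and 8.32% and 7.28% at 8 h in Mettl3-KO. The WT shares were 43.9% at 0 h, 43.8% at 1 h, 16.8% at 3 h, and 1.90% and 3.64% at 8 h. The share was lower in Mettl3-KO at 0 h and 1 h and higher at 3 h and 8 h. Its slope of labelled RNA was -0.10 log2 per h in Mettl3-KO and -0.58 in WT, a difference of 0.485 (SE 0.085, edgeR adjusted p = 0.000125). That slope is per unit of total RNA in the library, so the rise of the gene's own total RNA in Mettl3-KO enters it. With the gene's own total count as scale the difference was 0.295 (SE 0.065, edgeR adjusted p = 0.00245).

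Mrpl46 had shares of 30.4% and 27.8% at 0 h, 28.7% and 30.5% at 1 h, 22.2% at 3 h, and 7.91% and 7.82% at 8 h in Mettl3-KO. WT had 43.6% at 0 h, 48.0% at 1 h, 11.7% at 3 h and 1.05% in the first 8 h library. The second had 0 of 377 counts, which allows a share of up to 0.796%. At 8 h the Mettl3-KO shares were more than 7 times those of WT. The half-life from the slopes was 4.49 h in Mettl3-KO and 1.26 h in WT, and the slope difference was 0.573 (SE 0.102, edgeR adjusted p = 0.000155).

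Mrpl43 (chromosome 19, 45005014 to 45006442), particular to mitochondria and overlapping the helicase gene Twnk, had shares of 25.6% and 26.1% at 0 h, 23.8% and 27.2% at 1 h, 19.97% at 3 h, and 8.28% and 8.09% at 8 h in Mettl3-KO. WT had 37.3% at 0 h, 34.4% at 1 h, 9.66% at 3 h, and 1.42% and 1.3% at 8 h. From 3 h on the Mettl3-KO shares were the higher ones. The slope difference was 0.432 (SE 0.079, edgeR adjusted p = 0.000264).

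Mrpl57 (chromosome 14, 57826228 to 57829087), also particular to mitochondria, overlaps Ska3. Its shares were 26.5% and 28.3% at 0 h, 25.1% and 24.0% at 1 h, 23.2% at 3 h, and 10.5% and 10.6% at 8 h in Mettl3-KO, and 42.9%, 34.6%, 22%, 3.28% and 1.87% in the WT libraries of 0 h, 1 h, 3 h and 8 h. At 3 h the genotypes were close, and at 8 h they were apart. The slope difference was 0.480 (SE 0.091, edgeR adjusted p = 0.000414).

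Mrpl58 (chromosome 11, 115403724 to 115412674), a peptidyl-tRNA hydrolase that frees stalled ribosomes and is itself part of the large subunit, had the largest slope difference of the called members, 0.602 (SE 0.116, edgeR adjusted p = 0.000491). Its shares in Mettl3-KO were 13.0% and 26.2% at 0 h, 18.4% and 15.3% at 1 h, 14.7% at 3 h, and 3.30% and 3.83% at 8 h. In WT they were 31.9% at 0 h, 31.2% at 1 h, 9.56% at 3 h, and 0.641% and 0.161% at 8 h. The Mettl3-KO libraries at 0 h lay far apart, and at 8 h the groups did not overlap.

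Mrpl20 had shares of 23.4% and 23.2% at 0 h, 21.1% and 25.6% at 1 h, 16.7% at 3 h, and 6.19% and 5.44% at 8 h in Mettl3-KO. WT had 38.0% at 0 h, 29.3% at 1 h, 15.7% at 3 h, and 1.98% and 0.711% at 8 h. Its half-life was 5.53 h in Mettl3-KO and 1.6 h in WT, with a slope difference of 0.443 (SE 0.087, edgeR adjusted p = 0.000622).

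Mrpl27 (chromosome 11, 94653770 to 94661932), whose bacterial homologue reaches toward the peptidyl transferase centre, overlaps Eme1. It had shares of 32.5% and 32.3% at 0 h, 26.1% and 34.8% at 1 h, 27.1% at 3 h, and 10.3% and 9.42% at 8 h in Mettl3-KO. WT had 47.2% at 0 h, 50.6% at 1 h, 18.2% at 3 h, 3.58% in one 8 h library and 0 of 92 counts in the other, which allows a share of up to 3.26%. The slope difference was 0.572 (SE 0.114, edgeR adjusted p = 0.000786). With the gene's own total count as scale the difference was 0.325 (SE 0.084, edgeR adjusted p = 0.0120). Its total RNA varied between libraries, from 39.5 to 145 CPM in Mettl3-KO and from 14.7 to 78.2 CPM in WT.

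Mrps12 (chromosome 7, 28739641 to 28741821) was the small subunit member with the smallest p. Its shares were 27.3% and 28.2% at 0 h, 23.4% and 29.4% at 1 h, 17% at 3 h, and 7.53% and 7.49% at 8 h in Mettl3-KO, and 42.7% at 0 h, 35.5% at 1 h, 15.6% at 3 h, and 1.02% and 1.84% at 8 h in WT. The half-life was 5.61 h in Mettl3-KO and 1.67 h in WT, with a slope difference of 0.422 (SE 0.088, edgeR adjusted p = 0.00114).

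**Figure D5:**
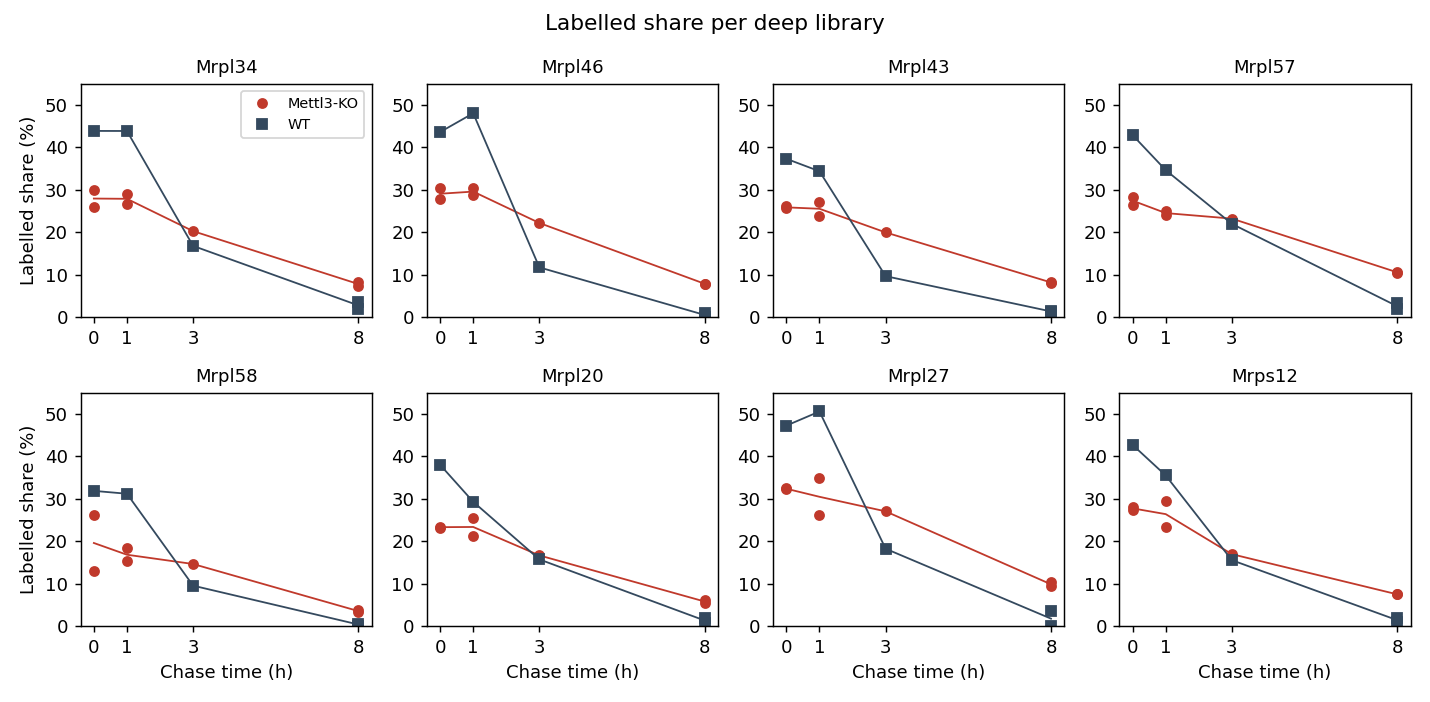
Labelled share (%) against chase time (h) for the 8 members with the smallest p for slower loss, 1 point per deep library and a line through the means of each time. In each panel the Mettl3-KO means are lower than WT at 0 h and 1 h and higher at 8 h; Mrps12 for instance had 7.53% and 7.49% in Mettl3-KO and 1.02% and 1.84% in WT at 8 h.

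The other 14 members called slower had differences between 0.299 (Mrps23) and 0.462 (Mrps34), both of which encode small subunit proteins particular to mitochondria. Mrpl17, shown above with the NRF1 core and the homologue of a bacterial large subunit protein, had 0.327 (SE 0.080, edgeR adjusted p = 0.00663). Over the 22 called members the median half-life was 5.12 h in Mettl3-KO and 1.61 h in WT. Of these 22, 19 had a promoter sequence, and 11 of the 19 (57.9%) held the ETS motif, beside 14 of 49 members without the call (28.6%) and 26.7% of all 528 genes with the call and a promoter. The E-box was in 4 of the 19 (21.1%) and in 1 of the 49 (2.04%), beside 14.4% of those 528 genes. The NRF1 core and the YY1 motif were each in 10.5% of the called members and 12.2% of the others. For total RNA the ETS motif was in 10 of 31 members called higher (32.3%) and in 15 of 37 members not called (40.5%), and the other 3 motifs also had a lower share in the called members. These shares are descriptions of small groups and were not tested.

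At the other end, 5 members had a slope difference below 0 and none was called. Mrps31, particular to mitochondria, had the lowest at -0.169 (SE 0.115, edgeR adjusted p = 0.424), with a half-life of 1.63 h in Mettl3-KO and 2.25 h in WT. Mrps9 followed at -0.135 (SE 0.107, edgeR adjusted p = 0.507), with 1.69 h in Mettl3-KO and 2.19 h in WT. Some members that were far higher in total RNA had slopes that differed by less than 1 SE. Mrpl45 lost label at -0.550 log2 per h in Mettl3-KO and -0.557 in WT, a difference of 0.008 (SE 0.084), and Mrpl19 had a difference of 0.003 (SE 0.089). Both total RNA and slopes use the same libraries, so these measures are set side by side here and not related by a test.

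When each gene's own total count was the offset, the test was of the labelled share itself. On the fitted lines, the log2 difference in share at 0 h was below 0 for 75 of 76 members, with a median of -0.58, beside -0.44 over all genes. None of the members was called by edgeR, or by DESeq2, and over all genes 0.126% were called lower. An unadjusted p under 0.05 with a value below 0 was found for 19 of 76 members, beside 9.15% of all genes. The loss rate difference of the share was above 0 for 70 members and called slower for 23, beside 5.87% of all genes, and 0 were called faster, as also by DESeq2 and at an unadjusted p under 0.05. Its median was 0.191 log2 per h over members and 0.0943 over all genes. With all 14 libraries 14 members were called, beside 3.51% of all genes. The count was 12 without WT 8 h replicate 1, 13 without Mettl3-KO 8 h replicate 2, 15 without Mettl3-KO 8 h replicate 1 and 15 without WT 1 h replicate 1. For these fits the share of all genes called is not given here, so the counts are not set against all genes.

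The 8 members with the smallest p for the share were Mrpl43, Mrpl46, Mrps12, Mrps34, Mrpl57, Mrpl58, Mrpl41 and Mrpl20. Mrpl43 had the smallest, at 0.405 log2 per h (SE 0.061, edgeR adjusted p = 9.82e-06), and Mrpl46 had 0.542 (SE 0.086, edgeR adjusted p = 2.35e-05). Mrps34 (chromosome 17, 24895120 to 24896289) had shares of 16.5% and 21.2% at 0 h and 5.81% and 6.45% at 8 h in Mettl3-KO, against 31.7% at 0 h and 1.78% and 0.174% at 8 h in WT. Its difference was 0.432 (SE 0.083, edgeR adjusted p = 0.000440). Mrpl41 (chromosome 2, 24972470 to 24975098) had shares of 29.8% and 32.7% at 0 h and 14.2% and 11.2% at 8 h in Mettl3-KO, and 37.9% at 0 h and 2.10% at 8 h in WT, where the other 8 h library had 0 of 226 counts, which allows a share of up to 1.33%. Its difference was 0.484 (SE 0.10, edgeR adjusted p = 0.00118).

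The authors' deposited table of half-lives holds 30 of the 77 members among its 6984 genes, with no unit in its header. In the authors' deposited table the half-life was longer in Mettl3-KO for 29 of the 30 members (96.7%), beside 83.4% of all its genes. The authors' deposited table gave medians of 3.94 in Mettl3-KO and 1.82 in WT over members, and 2.52 and 1.69 over all its genes. In the authors' deposited table the Mettl3-KO half-life was more than 1.5 times that of WT for 24 members, beside 50.3% of all its genes. Of the 8 members named above for slower loss of labelled RNA, none has an entry there. The 5 members with a slope difference below 0 (Mrpl35, Mrpl47, Mrps31, Mrps35 and Mrps9) had the opposite direction in the authors' deposited table. Their half-lives there were longer in Mettl3-KO, as for Mrps31 (1.89 against 1.58 in WT) and Mrps9 (2.71 against 2.01).

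Other genes of the same pathway were read from lists drawn up by function. Of the mitoribosomal proteins with other symbols, 5 were tested. Chchd1, a small subunit protein, was higher in total RNA (log2 0.80, SE 0.16, edgeR adjusted p = 0.000674), and Dap3, a GTP-binding small subunit protein, was lower (log2 -0.83, SE 0.18, edgeR adjusted p = 0.00117), as was Aurkaip1 of the small subunit (log2 -0.61, SE 0.15, edgeR adjusted p = 0.00348). Slower loss was called for Chchd1 (0.457), for Gadd45gip1 of the large subunit (0.389) and for Aurkaip1 (0.273). Ptcd3 was not called in either comparison.

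Of 31 genes listed for ribosome assembly and rRNA modification, 8 were higher and 3 lower in total RNA (25.8% and 9.68%), beside the 21.8% and 19.2% of all genes. The higher ones included the rRNA methyltransferase Mrm3 (log2 1.83, SE 0.17), the pseudouridine synthase Rpusd3 (1.28, SE 0.17) and the small subunit maturation factor Rbfa (0.89, SE 0.17). Also counted among them was Yars2 (1.27, SE 0.19), a tyrosyl-tRNA synthetase and so not a factor of assembly or rRNA modification. The lower ones were the endonuclease Ybey (-2.31, SE 0.37), Mettl17 (-0.87, SE 0.27) and the helicase Ddx28 (-0.58, SE 0.22). Slower loss was called for 1 of 30, Mpv17l2 (0.405), with a list median of 0.0858. Of 18 translation factors, 4 were higher, led by the elongation factor Tsfm (log2 1.12, SE 0.21), and 1 was lower, Gfm2 (-0.54, SE 0.19), and 0 had a call in loss. The 4 higher genes are 22.2% of that list, close to the 21.8% of all genes. Of 18 genes of mitochondrial transcription and nucleoid, 3 were higher, the coactivators Ppargc1b (1.34, SE 0.24) and Pprc1 (0.98, SE 0.15) and the receptor Esrra (1.04, SE 0.25). The 3 lower ones were Gabpb1, a subunit of GABP (-0.98, SE 0.22), the DNA polymerase Polg (-0.67, SE 0.15) and Ssbp1 (-0.52, SE 0.18), and 0 of 17 had a call in loss. Either count is 16.7% of that list, below the shares over all genes. With all 14 libraries the counts were 6 higher and 1 lower for assembly, 1 higher and 0 lower for translation factors, and 2 higher and 2 lower for transcription and nucleoid, beside 12.1% of all genes higher and 9.99% lower. The medians of the loss rate difference were 0.0481 log2 per h for translation factors and 0.0188 for transcription and nucleoid, beside 0.198 for the 76 mitochondrial ribosomal protein genes and 0.0983 for all genes.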

How the data were processed

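Total and conversion counts per gene were used for 14 libraries as the authors deposited them, 2 tables of whole-number counts with 36336 entries named by gene symbol; 1 entry without a name was left out (0.00707% to 0.0312% of a library). Per the submitters' processing notes, the build was mm10 and the tools were featureCounts (Subread 1.5.0), Trim Galore 0.4.0 and edgeR 3.32.1. The sources used here do not name the aligner or the caller of conversions, nor say if counting used strand or if conversions were counted per read or per base. The authors deposited another table of half-lives, other values with no unit, which is described as theirs.

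Quasi-likelihood F tests (edgeR 4.0.16 on R 4.3.3; TMM scaling, robust dispersion) were run on 14641 genes with a total count of 10 or more in 6 or more libraries, and on 12678 genes with 10 or more conversion counts in 3 or more. Adjustment was by Benjamini-Hochberg over all genes tested. Total RNA was modelled on genotype and chase time, or genotype, hours and their interaction. Conversion counts were modelled on genotype, hours and their interaction, with the TMM-scaled total count of the library as scale; for the labelled share the scale was the gene's own total count plus 0.5. All groups shared 1 estimate of spread. The 12 libraries with at least 1000000 counts were used. Alternatives were all 14 libraries, DESeq2 1.42.0, other scalings and filters, a replicate block and leaving out each library. The code was tested on simulated data.

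The members, gene lists and tests were chosen with earlier results of these data known. For each comparison up to 8 called members with the smallest p are named, or the 3 with the smallest p, beside the highest and lowest level, the S18 paralogues and up to 6 called genes per list.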

Additional observations from a re-analysis of the deposited data

Results flagged for a closer look

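For the 8 named members, out of 22 called slower, the difference in loss rate between the genotypes was itself the tested quantity and passed the threshold. On the scale of log2 per h, Mettl3-KO minus WT, it was 0.485 for Mrpl34, 0.573 for Mrpl46, 0.432 for Mrpl43, 0.480 for Mrpl57, 0.602 for Mrpl58, 0.443 for Mrpl20, 0.572 for Mrpl27 and 0.422 for Mrps12. For Mrpl34 the difference in the slope of total RNA, 0.198 log2 per h, passed as well. It enters the loss rate difference of that gene, which was 0.295 with its own total count as scale.

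Among 48 groups of libraries examined for the named members, 2 had 1 library far from the others, where chance alone gives about 1 in 20, or 2.4 groups. Both were WT 8 h replicate 2, with 88.3 CPM of Mrpl16 (the next WT library had 69.5) and 11.3 CPM of Mrps18b (the next had 5.76).

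In the 2 shallow libraries outside the 12, the members' labelled share was 10.6% in Mettl3-KO 3 h replicate 2 (Wilson 95% interval 9.50% to 11.8%) and 16.7% in WT 1 h replicate 2 (12.8% to 21.5%). Both lie below the other library of their group, at 19.8% and 32.8%.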

How the results depend on the processing

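With all 14 libraries, 22 members were higher in total RNA, 0 were called over the hours, 10 lost labelled RNA more slowly and 14 lost the labelled share more slowly. For total RNA over the hours, where the count was 1, DESeq2 gave 3, no count filter 4, the replicate block 0 and no robust estimation 0. For labelled RNA at 0 h, where it was 0, DESeq2 gave 1 higher, the stricter filter 1 and TMM of the conversion counts 8. That scaling removes the common loss of label: the median slope of all genes became -0.0543 in WT and -0.0526 in Mettl3-KO, against -0.562 in WT and -0.473 in Mettl3-KO. Loss was then called for 2 members in WT and 1 in Mettl3-KO, and slower loss for 13, with a median difference of 0.115 beside 0.0148 over all genes. With the gene's own total as scale, labelled RNA at 0 h was -0.39 for Mrpl51, -0.17 for Mrpl45 and -0.26 for Mrpl12. The causes of these changes were not tested. For DESeq2, the other scalings and filters, the replicate block and the fits that leave out a library, the share of all genes called is not given. Those counts of members are therefore not set against all genes.

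Leaving out each library gave 29 to 39 members higher and 0 lower in total RNA, 0 to 2 called over the hours, 0 to 3 higher and 0 to 1 lower in labelled RNA at 0 h, 75 to 76 losing label in WT and 56 to 73 in Mettl3-KO. It gave 13 to 28 with slower loss, 12 to 27 with slower loss of the share, 0 with faster loss and 0 called for the share at 0 h. Same-numbered libraries did not deviate together (r -0.0746 to 0.171 over 6 pairs of groups), so the numbers were not taken as a pairing; with the replicate block 38 members were higher in total RNA and 22 lost label more slowly. Of the values of single named members, 217 kept direction and call in the other alternatives, 8 gained a call, 4 lost one and 3 turned; with 1 library left out 343 kept both, 7 gained a call, 10 lost one and 0 turned. The shallow libraries, and single WT libraries at 3 of the 4 times, limit the precision of the loss rates.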
